A study of Arabidopsis thaliana with 6 samples.

Results

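Expansins and xyloglucan endotransglucosylase/hydrolases (XTH) are the wall-loosening and wall-remodelling proteins of the primary plant cell wall. Expansins loosen the contacts between cellulose and the surrounding matrix without cutting polymers, and fall into the alpha (EXPA), beta (EXPB) and expansin-like (EXLA, EXLB) families. XTH enzymes cut xyloglucan, the main hemicellulose that tethers cellulose in Arabidopsis, and rejoin it to another chain or to water. Members of both families are used at particular times and places, such as growing root hairs, germinating seeds or the root elongation zone, and are kept silent elsewhere. The genes described here are the 63 nuclear protein-coding genes of Arabidopsis thaliana whose primary symbol in the RefSeq gene table is EXPA, EXPB, EXLA, EXLB or XTH and a number, of 27432 nuclear protein-coding genes in all. They comprise 23 EXPA, 6 EXPB, 3 EXLA, 1 EXLB and 30 XTH genes. A further gene with such a symbol was left out because the table calls it a pseudogene.

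SWINGER (SWN) provides the catalytic activity of a Polycomb repressive complex, PRC2, which places the silencing mark H3K27me3 on chromatin, and VAL1 and VAL2 are B3-domain proteins that bind DNA and repress the seed programme. SWN fused to GFP and expressed from the SWN promoter in a swn mutant was immunoprecipitated with an antibody against GFP from whole seedlings 14 days old, in 2 libraries whose plants had functional VAL genes (SWN-GFP, called VAL-intact here) and 2 whose plants lacked both (SWN-GFP val1 val2, called the double mutant). All 4 libraries carry the swn mutation and the transgene, the labels do not name the alleles, and no library without the fusion was analysed here. Whole seedlings mix organs, so a peak can come from any of them and a weak peak can stem from few cells or from weak binding in many. The series title concerns recruitment of SWN by VAL1 and VAL2. Comparing the genotypes asks which genes SWN still occupies in their absence.

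Each library has its own list of peaks, with 8189 and 8666 peaks for VAL-intact and 9177 and 9618 for the double mutant. Their sequencing depth is unknown. A gene counted as occupied in a list when a peak overlapped its span by 1 bp or more, and its covered length is the number of bp of the span under peaks. It is called kept when all 4 lists had a peak in it, lost when both VAL-intact lists and neither double mutant list had one, gained in the reverse case, and mixed when only some other combination of lists had one. The fold enrichment of a peak is the authors' own score of the summit over the local background, and its percentile ranks it within its own list only. With 2 libraries against 2, the smallest p that an exact two-sided permutation test can give is 0.33, so no difference between the genotypes could pass 0.05. Nothing in the labels ties the replicates to separate batches of plants, their spread may therefore be technical only, and an effect of genotype cannot be told apart from one of batch or of the separate inputs.

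SWN-GFP peaks were spread widely over both families. Of the 63 genes 48 had a peak in at least 1 list, against 29% of all nuclear protein-coding genes. Each VAL-intact list occupied 30 of the 63, and the double mutant lists occupied 28 and 33 (30 ± 0 and 30.5 ± 3.54, SD, n = 2 each; exact permutation p = 1). Both VAL-intact lists had a peak in 27 of them (16.9% of all genes) and both double mutant lists in 26 (17.9% of all genes). The median span of the 63 genes was 1644 bp, against 2078 bp for all genes.

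Over both families together, the occupancy consisted for the most part of short, weak peaks. The strongest peak of an occupied gene had a median percentile, by fold, of 50.2 and 40.0 within the VAL-intact lists and 50.2 and 44.3 within the double mutant lists, where the medians over all occupied genes lay between 63.5 and 64.5. Only 11 of the 63 genes reached a fold of 4 in any list. Those past it made up between 15.2% and 25% of the occupied members per list, against 31.9% to 41.4% of all occupied genes. Mean covered length per occupied member was 782 and 846 bp in the VAL-intact lists, against 743 and 756 bp over all occupied genes. In the double mutant lists it was 664 and 657 bp, against 702 and 710 bp. The median length of the peaks that touched the 63 genes was between 320.5 and 379 bp per list, while it was between 452 and 485 bp over all peaks. Most of these peaks belonged to the gene itself: between 90.7% and 100% of them per list had their summit inside a member, and none touched 2 members at once.

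Occupancy of individual genes often differed between the genotypes. Of the 63 genes 16 were kept (12.6% of all genes), 9 were lost (2.7% of all genes), 8 were gained (3.61% of all genes) and 15 were mixed (10.1% of all genes). These shares of the families come to 25.4%, 14.3%, 12.7% and 23.8%. Among genes with a peak in any list, the comparison is less uneven, with 33.3% of members kept against 43.6% of all such genes, 18.8% lost against 9.3%, and 16.7% gained against 12.5%. Limited to peaks with a fold of at least 4, the families stood near the background, with 3 genes kept (4.76%, against 4.11% of all genes), 1 lost (1.59%, against 1.94%) and 1 gained (1.59%, against 1.2%). At that cutoff the lost gene was XTH19 and the gained gene EXPA15, which were mixed and kept in the full lists. None of the 9 lost and 8 gained members of the full lists was lost or gained there. A site without a peak in a list may have missed the calling threshold narrowly.

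**Figure D1:**
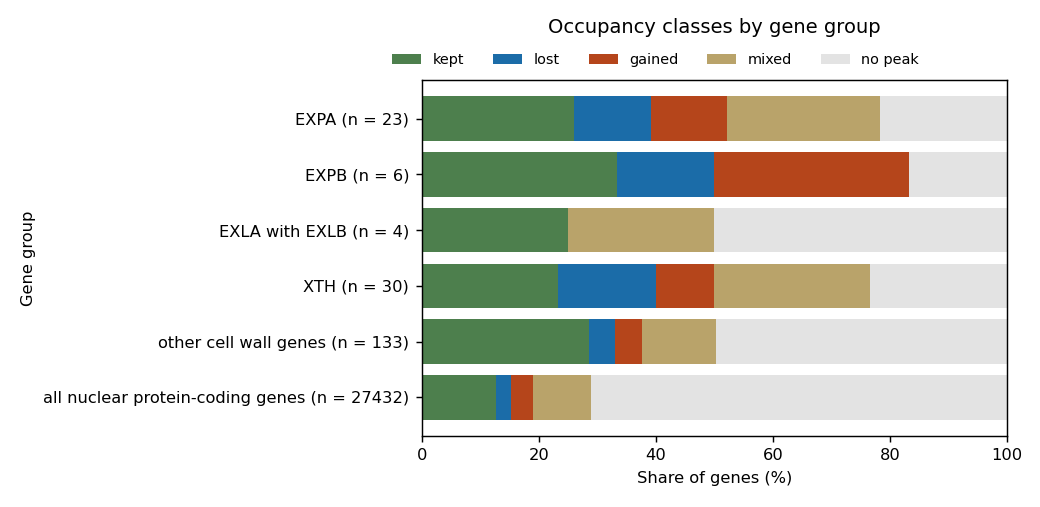
Share of genes (%) in each occupancy class for the EXPA, EXPB, expansin-like (EXLA with EXLB) and XTH genes, for 133 other cell wall genes and for all 27432 nuclear protein-coding genes. Each bar adds up to all genes of its group; 71% of all genes had no peak in any list, against 15 of the 63 members.

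By covered length, 19 of the 63 genes were covered less in both double mutant lists than in either VAL-intact list (7.21% of all genes) and 13 were covered more (8.71% of all genes). Among genes with a peak in any list, 39.6% of members were covered less, against 24.9% of all such genes. Covered more were 27.1% of these members, against 30.1% of all such genes. The XTH genes leaned one way, with 10 covered less and 4 more, and the expansins did not, with 9 and 9. Summed over the 30 XTH genes, peaks covered 13.99 and 14.55 kb in VAL-intact replicates 1 and 2 and 9.20 and 10.68 kb in double mutant replicates 1 and 2. The groups do not overlap, with means of 14.27 ± 0.39 and 9.94 ± 1.05 kb (SD, n = 2 each), a difference of -30.3% (exact permutation p = 0.33, the smallest possible). The number of occupied XTH genes was similar, with 14 and 14 against 12 and 14. The mean covered length per occupied XTH gene was 999 and 1039 bp against 767 and 763 bp. These means are over different genes, since 5 XTH genes were lost and 3 gained. The lost XTH6 and XTH24 differed by -1468.5 and -993.5 bp, and the gained genes were covered over 541 bp or less per list.

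The 33 expansins were covered over 9.47 and 10.85 kb in VAL-intact seedlings and 9.40 and 11.00 kb in the double mutant, so the groups overlap entirely (10.16 ± 0.97 and 10.20 ± 1.13 kb, SD, n = 2 each; exact permutation p = 1). XTH minus expansin length was 4.52 and 3.70 kb in VAL-intact seedlings and -0.195 and -0.321 kb in the double mutant (exact permutation p = 0.33, the smallest possible). Over all nuclear protein-coding genes the covered length was 3967 ± 159 kb in VAL-intact seedlings and 4065 ± 170 kb in the double mutant (SD, n = 2 each), a difference of 2.48%. Leaving out 1 XTH gene at a time gave differences from -37.8% without XTH31 to -22.3% without XTH6. Without the neighbours XTH24, XTH18 and XTH19 and without XTH6, 4 genes singled out after their values were seen, the XTH sum was 8.94 ± 0.19 and 8.56 ± 0.92 kb (SD, n = 2 each). For the expansins the range ran from -12.7% without EXPA15 to 9.996% without EXPA9, both picked by the size of their effect.

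**Figure D2:**
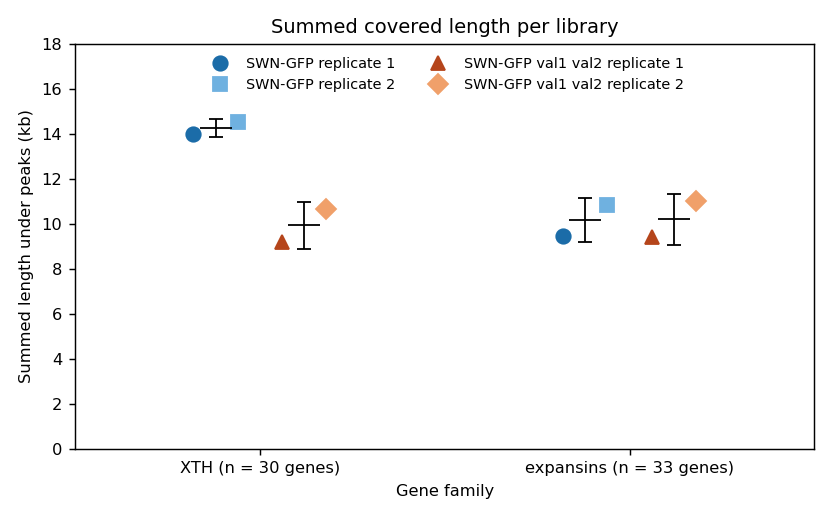
Summed length of gene spans under peaks (kb) for the XTH genes and the expansins in each of the 4 libraries; points are libraries and black bars are the mean ± SD of the 2 libraries of a genotype. Both VAL-intact libraries lie above both double mutant libraries for XTH, at 13.99 and 14.55 against 9.20 and 10.68 kb, and the genotypes overlap for the expansins.

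By fold, the strongest site of the families in the VAL-intact lists was XTH18 (AT4G30280). In the double mutant lists XTH30, EXPA15 and XTH26 had higher folds. XTH18 stands next to XTH19 (AT4G30290) and XTH24 (AT4G30270) on chromosome 4 with no other protein-coding gene between them. XTH18 and XTH19 are closely related genes of the root, and XTH24, first described as MERI5, was found in meristems. At XTH18 the peaks lay at chromosome 4, 14824565 to 14827147 and 14824594 to 14827154 in VAL-intact seedlings and at 14825782 to 14827077 and 14826027 to 14827077 in the double mutant (TAIR10). Their fold was 13.0 and 14.7 in the VAL-intact lists, at percentiles 98.6 and 99.3, and 5.12 and 4.73 in the double mutant lists, at percentiles 86.8 and 85.2. In SWN-GFP the peak ran beyond the XTH18 span towards XTH24. In double mutant both peaks ended within the span, and replicate 1 had a separate peak with a fold of 2.06 in the stretch beyond it. XTH18 itself was covered over 1391 and 1398 bp in VAL-intact seedlings and 1296 and 1051 bp in the double mutant.

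XTH19 was covered over 1433 and 1513 bp in VAL-intact seedlings, had no peak in double mutant replicate 1 and was covered over 420 bp in replicate 2. Its fold was 6.93 and 5.84 in the VAL-intact lists and 2.38 in that last list, where it ranked at percentile 22.2 against 91.6 and 88.5 before. Both replicates of SWN-GFP thus had a strong peak over nearly all of the gene, and the double mutant had a short weak one in 1 library. XTH24 was covered over 906 and 1081 bp in VAL-intact seedlings, at a fold of only 2.82 and 2.88, and had no peak in either double mutant list. Together the 3 genes were covered over 3730 and 3992 bp in VAL-intact seedlings and 1296 and 1471 bp in the double mutant. These groups do not overlap.

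**Figure D3:**
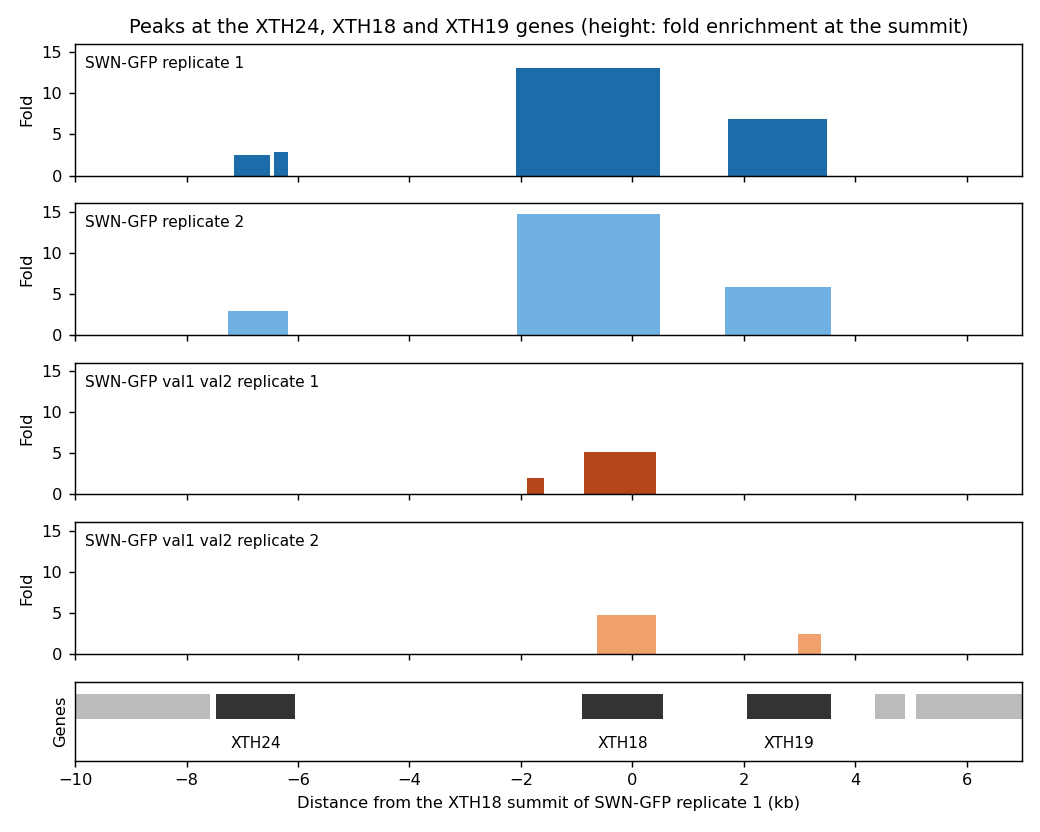
Peaks of the 4 lists at XTH24, XTH18 and XTH19, drawn as bars from the start to the end of each peak, with the authors' fold enrichment at the summit as height; the horizontal axis is the distance (kb) from the XTH18 summit of VAL-intact replicate 1, dark boxes are the 3 XTH genes and grey boxes other protein-coding genes. The fold at XTH18 is 13.0 and 14.7 in VAL-intact seedlings and 5.12 and 4.73 in the double mutant, and the peaks of XTH24 appear in the VAL-intact lists only.

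Outside this cluster, 2 XTH genes carried strong peaks in all 4 lists. XTH30 (AT1G32170) was covered over 1418 and 1517 bp in VAL-intact seedlings and 1263 and 1124 bp in the double mutant. Its strongest peak had a fold of 11.7 and 12.9 and then 8.80 and 7.51, and its lowest percentile in any list was 95.7. The main peak of XTH30 kept its place, at chromosome 1, 11575050 to 11576536 and 11575175 to 11576457 in VAL-intact seedlings and 11575175 to 11576582 and 11575205 to 11576443 in the double mutant. The shorter coverage in the double mutant came from a second, weak peak with a fold of 2.51 and 2.69, which appeared in the VAL-intact lists alone. XTH26 (AT4G28850), an XTH of roots, was covered over 1651 and 1748 bp in VAL-intact seedlings and 1180 and 1670 bp in the double mutant, which overlap. Fold at XTH26 was 10.5 and 9.11 in the VAL-intact lists and 5.75 and 6.33 in the double mutant lists, with its summit inside the gene in all 4.

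The remaining kept XTH genes had weaker peaks. XTH14 (AT4G25820), which acts in root xyloglucan remodelling, was covered over 1566 and 1570 bp in VAL-intact seedlings and 1165 and 1339 bp in the double mutant. Nearly its whole span lay under a peak in VAL-intact seedlings. In replicate 1 that peak was shared with the neighbouring XTH gene XTR6 (XTH23), which held the summit, and the fold of 5.16 there belongs to that neighbour. XTH33 (AT1G10550), which encodes an XTH tied to the plasma membrane, was covered over 883 and 684 bp and then 322 and 263 bp, at folds between 2.35 and 2.78 and percentiles between 14.8 and 39.3. XTH31 (AT3G44990), of the group of XTH proteins with hydrolase activity, went the other way. It was covered over 790 and 1226 bp in VAL-intact seedlings and 1696 and 1698 bp in the double mutant, at folds of 4.18 and 3.55 and then 4.01 and 4.12. The fold thus differed little at XTH31 while more of the gene lay under peaks. XTH29 was covered over 1209 and 622 bp and then 537 and 993 bp, and these groups overlap.

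Lost XTH genes numbered 5. XTH6 (AT5G65730) was the broadest, covered over 1455 and 1482 bp in VAL-intact seedlings, 80.7% and 82.2% of its span, and without a peak in the double mutant. The peaks lay at chromosome 5, 26298928 to 26300382 and 26298967 to 26300448, at a fold of 3.74 and 2.94 and percentiles 66.3 and 48.5. XTH25 was covered over 427 and 645 bp at a fold of 3.08 and 3.16 and percentiles 48.9 and 56.3. XTH8 was covered over 389 and 564 bp at a fold of 3.55 and 2.32 and percentiles 62.2 and 13.1. XTH7 was covered over 236 and 233 bp at a fold of 2.40 and 2.47, but by peaks in different parts of the gene that did not overlap each other, so its loss rests on no site found in both replicates. XTH24 of the cluster above is the fifth.

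Gained XTH genes numbered 3, all by weak peaks. XTH4 (AT2G06850), which acts in secondary growth of stems, was covered over 541 and 508 bp in the double mutant lists, at a fold of 2.52 and 2.73. XTH9 (AT4G03210) was covered over 246 and 154 bp, at a fold of 2.71 and 2.98. In replicate 2 the summit of the XTH9 peak lay outside the gene. XTH1 was covered over 200 and 201 bp, at a fold of 2.24 and 2.04, by peaks that did not overlap each other. Their highest percentile in any list was 56.8.

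**Figure D4:**
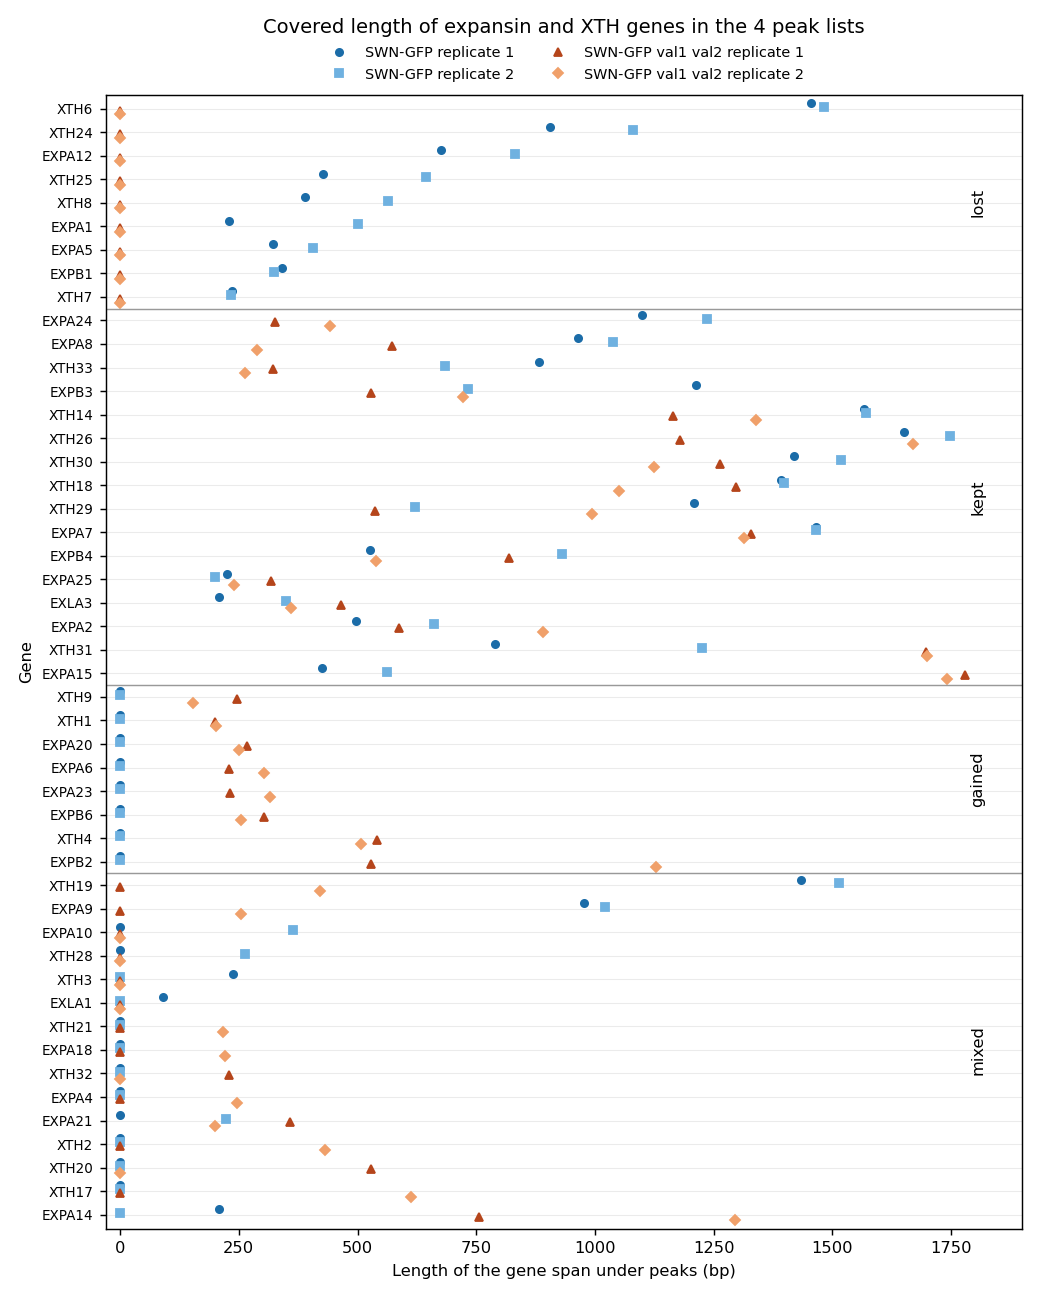
Length of the gene span under peaks (bp) in each of the 4 lists for the 48 genes with a peak in any list, ordered by occupancy class and, within it, by the difference between genotype means. The lost XTH6 (1455 and 1482 bp against no peak) and the kept EXPA15 (425 and 562 bp against 1778 and 1741 bp) have the largest differences in either direction among the lost and the kept genes; points at 0 are lists without a peak in the gene.

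Among the alpha-expansins, EXPA15 (AT2G03090) differed most. It was covered over 425 and 562 bp in VAL-intact seedlings and 1778 and 1741 bp in the double mutant, from 22.8% and 30.1% to 95.3% and 93.3% of its span. The peaks lay at chromosome 2, 917060 to 917484 and 917053 to 917614 in VAL-intact seedlings and at 916894 to 918673 and 916931 to 918700 in the double mutant. Both lists of the double mutant held a single peak over nearly the whole gene, which contains the short peak of the VAL-intact lists. The fold was 3.75 and 3.07 in the VAL-intact lists, at percentiles 66.7 and 52.7, and 6.83 and 7.86 in the double mutant lists, at percentiles 93.8 and 96.2. EXPA15 was the 1 member gained when weaker peaks than a fold of 4 were left out.

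EXPA7 (AT1G12560), an expansin of root hair cells, lay under peaks over its whole span of 1465 bp in both VAL-intact lists and over 1329 and 1314 bp in the double mutant lists. Its fold was 3.29 and 4.14 and then 4.75 and 3.94, and the summit of the first of these lay outside any gene. In the double mutant the main peak ended inside the gene, where in VAL-intact seedlings it ran into the next gene. Replicate 2 of the double mutant also had a separate peak across that end of EXPA7. It had a fold of 2.21 and its summit in the next gene. EXPA18, the other well-known root hair expansin, was covered in double mutant replicate 2 alone, over 220 bp. With 1000 bp added on either side of EXPA18, mean covered length was 519.5 bp in VAL-intact seedlings and 824 bp in the double mutant.

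EXPA24 (AT5G39310) and EXPA8 (AT2G40610) were kept and covered less in the double mutant. EXPA24 was covered over 1099 and 1235 bp in VAL-intact seedlings and 327 and 442 bp in the double mutant, at folds between 2.96 and 3.99 and percentiles between 51.5 and 70.8. EXPA8 was covered over 965 and 1038 bp and then 573 and 289 bp, at folds between 2.64 and 3.97 and percentiles between 33.2 and 70.4. For both genes the groups do not overlap. EXPA25, next to EXPA24, was covered over 225 and 200 bp and then 318 and 240 bp. EXPA2 (AT5G05290), an expansin of germinating seeds, was covered over 497 and 662 bp and then 587 and 890 bp, which overlap. EXPA24, EXPA25, EXPA21, EXPA22 and EXPA23 lie near each other on chromosome 5, and the sources used here do not say how reads shared by such related copies were placed.

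The lost alpha-expansins were EXPA12, EXPA1 and EXPA5. EXPA12 (AT3G15370) was covered over 676 and 831 bp in VAL-intact seedlings by a pair of peaks in each list, at a fold of 3.10 and 4.13 and percentiles 49.6 and 74.9. EXPA5 (AT3G29030), an expansin linked to brassinosteroid-driven growth, was covered over 323 and 407 bp, at a fold of 4.09 and 2.54 and percentiles 72.1 and 27.6. EXPA1 (AT1G69530), an expansin of leaves and guard cells, was covered over 230 and 501 bp by peaks that did not overlap between the replicates, and its fold of 2.14 in replicate 1 ranked at percentile 2.97. Gained alpha-expansins were EXPA6, EXPA20 and EXPA23, each covered over 229 to 316 bp per list at folds between 2.25 and 2.99 and percentiles between 8.95 and 57.0. For these 3, the peaks of the replicates overlapped.

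Among the beta-expansins and expansin-like genes, only EXPB3 reached a fold of 4, in 1 list. EXPB2 and EXPB6, neighbours on chromosome 1, were both gained. EXPB2 was covered over 529 and 1128 bp at a fold of 2.45 and 2.88 in the double mutant lists, at percentiles 22.0 and 52.7. EXPB6 was covered over 304 and 255 bp at a fold of 2.20 and 2.56, at percentiles 6.58 and 35.5, and the EXPB6 peaks of the replicates did not overlap each other. EXPB1 was lost, with 340 and 324 bp in VAL-intact seedlings at a fold of 2.65 in both lists and percentiles 26.7 and 33.7. EXPB3 was kept and covered over 1213 and 733 bp and then 528 and 722 bp, so the groups missed an overlap by a narrow margin. Its fold was 3.09 and 2.74 and then 4.09 and 2.68, at percentiles 49.1 and 39.2 and then 77.5 and 42.7, so the list with the highest fold had the shortest coverage. EXPB4 was kept with 527 and 930 bp and then 819 and 538 bp, which overlap. EXLA3 was covered over 209 and 350 bp and then 465 and 360 bp, at folds between 2.36 and 2.70 and percentiles between 10.8 and 44.3, by peaks with no base in common between the replicates of either genotype. Its neighbour EXLA1 was touched over 91 bp in VAL-intact replicate 1 by a peak whose summit lay outside the gene. That was the shortest covered length of any occupied member in any list.

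**Figure D5:**
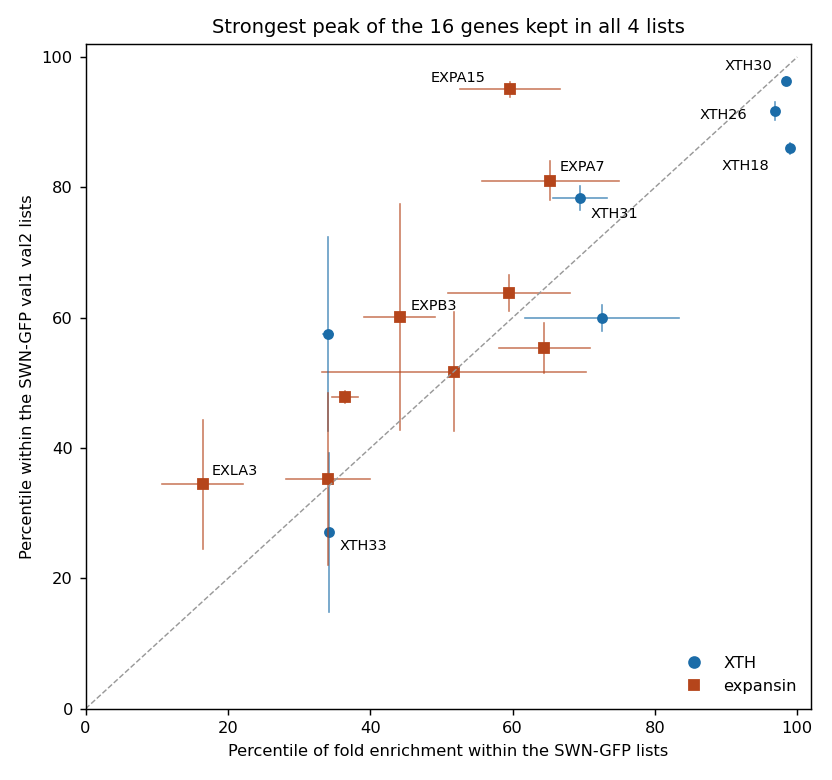
Percentile of the authors' fold enrichment of the strongest peak within its own list, for the 16 genes kept in all 4 lists; points are the mean of the 2 lists of a genotype, bars run from the lower to the higher list and the dashed line marks equal percentiles. XTH18, XTH26 and XTH30 sit at the top right, at percentile 96.5 or higher in both VAL-intact lists, and EXPA15 lies far above the line, at percentiles 66.7 and 52.7 against 93.8 and 96.2.

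The 15 mixed genes held peaks in 1 or 3 lists. In 2 of them, XTH19 and EXPA9, both VAL-intact lists and 1 list of the double mutant had a peak. EXPA9 (AT5G02260) was covered over 977 and 1022 bp in VAL-intact seedlings, had no peak in double mutant replicate 1 and was covered over 254 bp in replicate 2. EXPA14 (AT5G56320), a target of the lateral root regulator LBD18, showed the reverse. It was covered over 208 bp and 0 bp in VAL-intact seedlings and 756 and 1295 bp in the double mutant. EXPA21 had 222 bp in VAL-intact replicate 2 and 358 and 200 bp in the double mutant, all at a site that also lies in a gene overlapping it. The other 11 had a peak in a single list. Of these, 5 had it in replicate 2 of the double mutant, the longest list, with 246 bp covered at EXPA4, 220 bp at EXPA18, 432 bp at XTH2, 613 bp at XTH17 and 216 bp at XTH21. Replicate 1 of the double mutant alone covered XTH20 over 529 bp and XTH32 over 229 bp. VAL-intact replicate 1 alone covered EXLA1, as above, and XTH3 over 237 bp, and VAL-intact replicate 2 alone covered EXPA10 over 364 bp and XTH28 over 263 bp.

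Peaks of the replicates met at the same place in most called members. In 7 of the 9 lost genes the VAL-intact peaks shared at least 1 base, in 6 of the 8 gained genes the double mutant peaks did, and in 15 of the 16 kept genes all 4 lists did. Over all genes these shares were 96.4%, 95.8% and 96%, against 77.8%, 75% and 93.8% in the families, and these differences were not tested. The shared part made up a median of 57.3% of the VAL-intact coverage in lost members and 34.4% of the double mutant coverage in gained ones, where the medians over all lost and gained genes were 67.1% and 65.1%.

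No list had a peak in 15 members. These were 5 alpha-expansins (EXPA11, EXPA13, EXPA16, EXPA17 and EXPA22), EXPB5, EXLA2, EXLB1 and 7 XTH genes (XTH5, XTH10, XTH11, XTH12, XTH13, XTH15 and XTH16). In 4 of them (EXPA13, EXLA2, XTH5 and XTH10) a peak of some list ended within 1000 bp of the gene. XTH5 was the steadiest of these, with a peak 227 to 324 bp away in every list. The nearest peak lay 12591 bp from EXPA11 and 14634 bp from EXLB1. SWN-GFP may still have been present below the peak threshold in any of the 15.

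Genes that build or modify other parts of the wall were described the same way. The list of 133 genes comprised those named CESA, CSL, XXT, PME, PMEI, GAUT, GATL, LRX, FLA, COBL or AGP, which make cellulose, hemicelluloses and pectin or encode wall proteins. Of these 38 were kept, 6 lost, 6 gained and 17 mixed, and 66 had no peak. In shares, 28.6% were kept and 4.51% each were lost and gained, against 25.4%, 14.3% and 12.7% of the expansin and XTH genes. Over all genes these shares were 12.6%, 2.7% and 3.61%. Among genes with a peak in any list, 56.7% of the other wall genes were kept, 8.96% were lost and 8.96% were gained. These shares were 33.3%, 18.8% and 16.7% for the expansin and XTH genes, and 43.6%, 9.3% and 12.5% for all such genes. At a fold of at least 4 the order of the lost shares was the other way. There 7 of the other wall genes were lost (5.26%), against 1 of the 63 (1.59%) and 1.94% of all genes. Covered less were 8.27%, against 3.17% of the 63 and 3.1% of all genes. Whether any of these shares differ beyond chance was not tested. By covered length 22 were covered less in both double mutant lists (16.5%, against 7.21% of all genes) and 19 more (14.3%, against 8.71%).

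The largest difference of that list was at LRX2, a leucine-rich repeat extensin that shapes root hairs, which was covered over 2361 bp in both VAL-intact lists and 554 and 294 bp in the double mutant lists. PME3, a pectin methylesterase gene, had the largest difference among the lost ones, with 1153 and 803 bp in VAL-intact seedlings. CSLA01, of the family of mannan synthases, had the largest among the gained ones, with 1378 and 1436 bp in the double mutant. Among the mixed genes it was PME5, with 1077 and 1264 bp in VAL-intact seedlings and 375 and 0 bp in the double mutant. Of the 7 genes with the primary symbol CESA and a number, 1 had a peak in any list (14.3%, against 29% of all genes). It had none in the VAL-intact lists. Cellulose synthase genes listed under another primary symbol were not counted. Summed over the list, peaks covered 36.8 ± 0.95 kb in VAL-intact seedlings and 34.4 ± 1.14 kb in the double mutant (SD, n = 2 each, exact permutation p = 0.33, the smallest possible). Some single families differed about as much as XTH (-30.3%) or more. The 10 PME genes were covered over 8.49 and 8.25 kb in VAL-intact seedlings and 5.01 and 5.04 kb in the double mutant (-40.0%). LRX and COBL differed by -74.1% and -28.5%. The CSL genes went the other way, with 5.30 and 6.30 kb and then 8.09 and 8.80 kb (45.6%), and so did FLA (11.5%). These families were picked by their values.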

How the data were processed

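Peaks were called separately for each of the 4 immunoprecipitated libraries. Bowtie2, SAMtools, Picard and MACS2 were used with TAIR10, per the submitters' processing notes. For versions, settings and controls, no information is given in the sources used here. The 2 input libraries entered no comparison. The deposited lists have no header and their columns follow the layout of MACS2 peak tables. Their pileup is a signal deposited as whole numbers. The fold enrichment is the authors' ratio of summit to local background. The −log10 p and −log10 q are the authors' caller's own, the lowest −log10 q being 1.31 to 1.33. Depth is unknown, so no counting interval is given.

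Genes came from a RefSeq table of TAIR10.1 with no strand or exons, and none of its coordinates are printed. Of the summits per list 67.5% to 69.9% lay in protein-coding spans, and 45.8% to 46.7% after shifts of 1000 bp. The families and lists were chosen with earlier results of these data known. Members with a peak are named with their covered length, most lost, gained and less or more covered kept ones also with fold and percentile or their range, members without a peak are listed, and of the other wall genes the largest difference per class is named. No sequence table was used here, so the planned motif search was not run. Overlap code was tested on simulated data. Python 3.11.15, pandas 2.3.3, NumPy 2.4.6 and Matplotlib 3.10.9 were used, and tests over libraries are exact two-sided permutation tests (SciPy 1.17.1). Alternatives were the span with 1000 bp on either side, a fold of at least 4, lists of equal length, 100 bp of coverage, members by synonym, and each library left out. Those that ask for the summit inside the span or for peaks at the same place, and a crossed pairing, were added after seeing the data.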

Additional observations from a re-analysis of the deposited data

How the results depend on the processing

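The counts of kept, lost, gained, less covered and more covered members were within 1.5 times of 16, 9, 8, 19 and 13 under the alternatives run, with these exceptions. With only peaks of a fold of at least 4, which few members have, 3 members were kept, 1 was lost and 1 was gained. At that setting 2 were covered less (3.17%, against 3.1% of all genes) and 2 more (3.17%, against 2.71%). With lists of equal length 5 members were gained (7.94%, against 3.05% of all genes). Leaving out 1 library at a time gave 16 to 18 kept, 9 to 11 lost, 9 to 13 gained, 19 to 23 covered less and 13 to 19 covered more. The 13 gained came without SWN-GFP val1 val2 replicate 1. Shares over all genes, in the same order, were 12.6%, 2.7%, 3.61%, 7.21% and 8.71% with all 4 lists. They were 13.6%, 3.96%, 4.28%, 10.2% and 9.92% without SWN-GFP replicate 1. Without SWN-GFP replicate 2 they were 13.3%, 3.69%, 4.63%, 9.38% and 10.5%. The summed length of all 63 genes, 4.28 kb lower in SWN-GFP val1 val2 by means of 24.4 and 20.1 kb, kept its direction, with differences between -5.82 and -2.74 kb when a library was left out and -0.531 kb at a fold of at least 4. That of the expansins (0.043 kb) turned to -1.07 kb with lists of equal length, -0.645 kb without SWN-GFP replicate 1 and -0.759 kb without SWN-GFP val1 val2 replicate 2, and reached 0.845 kb without SWN-GFP val1 val2 replicate 1. Of single members, the difference in covered length at XTH30 turned to 16 bp and that at EXPB3 to 160.5 bp with a fold of at least 4. With 1000 bp added on either side the difference of 15 of the 48 members moved by more than the replicate spread, among them XTH18 (-221 to -1072.5 bp), XTH26 (-274.5 to -1065.5 bp) and the gained EXPA20 (258.5 to 58.5 bp, from means of 741.5 and 800 bp). XTH29 turned from -150.5 to 143 bp without SWN-GFP replicate 1 and to 77.5 bp without SWN-GFP val1 val2 replicate 1. EXPB4 turned from -50 to 151.5 bp without SWN-GFP replicate 2 and to 90.5 bp without SWN-GFP val1 val2 replicate 2. The groups of both genes overlap. Requiring peaks at the same place left 15 kept, 7 lost and 6 gained members of 63, against 3328, 713 and 949 of all 27432 genes.

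With the replicate number as a block, the differences were -4.86 and -3.71 kb, with a mean of -4.28 kb (exact sign-flip p = 0.5, the smallest possible); crossed pairing gave the same mean and p. Deviations of same-numbered libraries had a correlation of 0.0023 over 7953 genes with a peak and -0.31 over the 48 members, so the numbers were not taken to pair the samples. Depth is unknown and limits what a missing weak peak can show.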

Other observations

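The gene table gives further names for 6 genes outside the 63 as synonyms. XTR6 (XTH23), the neighbour of XTH14, was covered over 1401 and 1315 bp in SWN-GFP and 299 and 278 bp in SWN-GFP val1 val2. Its fold was 5.16 and 3.95 and then 2.43 and 2.83. TCH4 (XTH22), the touch-induced XTH, was covered over 142 and 685 bp in SWN-GFP and 508 and 0 bp in SWN-GFP val1 val2, which overlap. EXP3 (ATEXPA3) had no peak in SWN-GFP replicate 1 and 452, 223 and 269 bp in the other lists. PNP-A (EXLB3), a plant natriuretic peptide gene, had 200 bp in SWN-GFP val1 val2 replicate 2 only, and EXGT-A3 (XTH27) and AT4G30380 (EXLB2) had no peak.

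Among the arabinogalactan protein genes, AGP11, which acts in pollen, had the strongest peaks of the other wall genes in SWN-GFP. Its fold was 11.7 and 12.6 with VAL1 and VAL2 intact and 3.84 and 3.17 without them, over 736 and 753 bp and then 582 and 515 bp. AGP6, its close relative, had no peak in SWN-GFP and 342 and 353 bp in SWN-GFP val1 val2, at a fold of 3.04 and 3.12. Both were singled out after their values were seen.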
